A study of Mus musculus with 39 samples.

Results

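The late step of differentiation in wild-type C2C12 myotubes was taken as the 4 libraries of wild type (WT) cells at day 6 in differentiation medium set against the 4 libraries of WT cells at day 4, which are 8 of the 39 libraries analysed here. The members were taken by label. They and the gene lists used below were chosen with earlier results of these data known. C2C12 is a mouse myoblast line that withdraws from the cell cycle in low serum, fuses and forms contractile myotubes. In the series, WT cells and FlncKO cells, made by CRISPR/Cas9 cutting at the first exon of Flnc, were grown in 10% fetal bovine serum and moved to 2% horse serum for 0, 1, 2, 4 and 6 days. The WT day 6 and WT day 4 groups carry no introduced allele and differ by 2 further days in 2% horse serum with medium renewed each day. The FlncKO day 6 and day 4 groups (4 libraries each) are used beside them only to show where the WT step differs. Flnc encodes filamin C, a muscle actin crosslinker found at the Z-disc and at sites where myofibrils attach to the membrane. The labels do not say whether replicates came from separate cultures, or whether the FlncKO cells are a single clone. The p-values therefore measure a spread between libraries that may be technical. In the main fit that spread was estimated within all 10 groups of the 39 libraries, not from the 8 compared libraries alone. The question of the comparison is which genes still differ once contractile gene expression is already high.

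Myotube formation runs as a cascade. MyoD and myogenin switch on fusion proteins and the first, mostly embryonic and slow, sarcomeric isoforms, and Mef2 factors then act with them on later contractile, calcium-handling and metabolic genes. Genes of the cell cycle and of the extracellular matrix of proliferating myoblasts are turned down along the way, while a minority of cells, the reserve cells, stay mononucleated and undifferentiated. In RNA from a whole dish, fewer cells of a type and less RNA per cell cannot be told apart.

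In the fit of all groups no gene passed the test between WT day 6 and WT day 4. Of 13780 genes tested with edgeR's quasi-likelihood test, 0 had a Benjamini-Hochberg adjusted p under 0.05 (0%), and the smallest adjusted p was 1. At an unadjusted p under 0.05 there were 426 genes (3.09%), of which 116 had a higher estimate at day 6 (0.842%) and 310 a lower one (2.25%). In this fit, which takes no account of replicate number, that share is below the 0.05 that the threshold would pass if no gene differed. DESeq2 on the same 10 groups also called 0 genes, with 470 at an unadjusted p under 0.05, and DESeq2 on the 8 libraries alone, an alternative chosen after seeing the data, called 6: Tcap, Cd24a, Tceal7 and Fxyd6 higher at day 6, and Col1a2 and Adgrg1 lower at day 6. A fit of the compared groups with the replicate number as a block and the replicate 3 libraries left out, also chosen after seeing the data, called 146 genes, 83 higher and 63 lower at day 6. With replicate 3 kept the block called 0, with 823 of its 11922 genes at an unadjusted p under 0.05. The step before it, WT day 4 against WT day 2, which shares the day 4 libraries, gave 1486 calls in the same fit (10.8%), 597 higher at day 4 (4.33%) and 889 lower at day 4 (6.45%). A test of the difference between those steps, WT day 6 minus day 4 against WT day 4 minus day 2, called 0 genes (0%).

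The estimates were small and, for well-measured genes, bounded. Over all genes tested the median log2 fold change, day 6 over day 4, was -0.02 and its median size 0.19. Among the 9773 genes with a mean of at least 5 CPM (counts scaled to the library total) over the 8 libraries, the median size was 0.15, the 90th percentile of the size was 0.40, and 47 genes lay beyond a 2-fold estimate in either direction. For 8267 of those 9773 genes (84.6%) the whole 95% interval lay within 1 log2 unit of 0 on either side, so a change of more than 2-fold is outside the interval for them. For the rest the interval reached past 1 log2 unit or was missing, and a change of that size was not bounded. The libraries of the days did not overlap in CPM for 348 genes (2.53%), 171 with all day 6 libraries above all day 4 libraries (1.24%) and 177 with all below (1.28%). Among the 70 splits of 8 libraries into 4 and 4, the share without overlap is 0.0286. The 2.53% was thus no more than random splits give, and non-overlap of a gene named below describes its libraries only.

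The WT day 6 libraries held 8045843, 13130487, 15779125 and 8873968 counts (replicates 1, 3, 4 and 5; mean 11.5 ± 3.64 M counts, SD) and the WT day 4 libraries 17088192, 11496489, 19316669 and 17899383 (mean 16.5 ± 3.43 M counts, SD), so the later day is the shallower one. The libraries did not separate by day: on the first principal component of log2 CPM, which held 27.8% of the variance, the extreme library was WT day 4 replicate 3, and on the second, with 22.2%, WT day 6 replicate 5. Each library's mean correlation with its own day was 0.960 to 0.971 and with the other day 0.957 to 0.972. Leaving out both of those libraries gave 0 calls and 254 genes at an unadjusted p under 0.05. Flnc read 1673, 1925, 1362 and 1420 CPM in WT day 6 libraries, against 2207, 1902, 1244 and 1105 CPM in WT day 4 libraries. Flnc levels of the days overlapped, with an exact two-sided permutation p = 1 for log2 CPM (the smallest p that 4 against 4 libraries allow is 0.0286), and both groups were far above FlncKO cells, which averaged 121 ± 20.5 CPM at day 6 and 131 ± 19.6 CPM at day 4 (SD, n = 4 each).

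**Figure D1:**
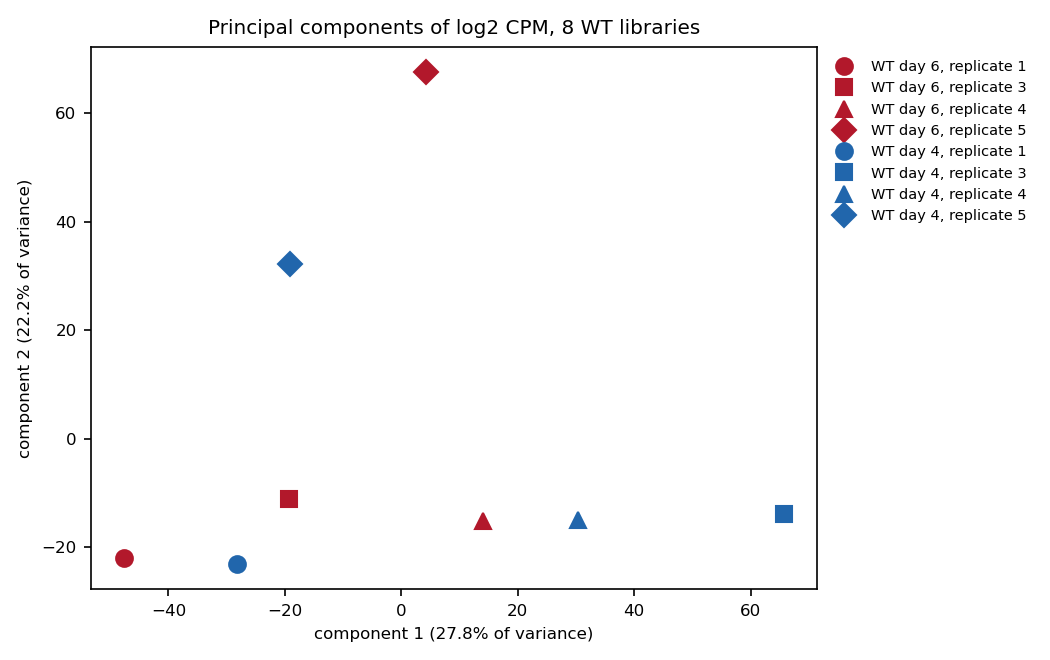
Scores of the 8 WT libraries on the first 2 principal components of log2 CPM (arbitrary units), with 27.8% and 22.2% of the variance. Red marks are day 6, blue marks day 4, and shapes give replicate numbers; replicate 3 of day 4 stands at the far right, replicate 5 of day 6 at the top, and no line between the days is seen.

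The skeletal muscle identity of the dishes was clear on both days. All 10 skeletal muscle markers were at 1 CPM or more, and their sum was 24200 to 36470 CPM in WT day 6 libraries, against 21690 to 30180 CPM in WT day 4 libraries. Among the markers of other cells, Cdh5, Tie1, Emcn and Erg (endothelium), Adgre1, Cd3e and Hbb-bs (blood), Plin1, Cidec, Lep, Retn and Cfd (adipocytes), Ibsp and Acan (bone and cartilage), Thy1 and Lum (fibroblasts) and Sox10, Snap25 and Rbfox3 (Schwann cells and neurons) had 0 counts in all 8 libraries. The summed endothelial markers were 1.74 to 5.79 CPM at day 6, against 3.65 to 10.9 CPM at day 4. The blood markers were 3.49 to 12.1 CPM at day 6, against 4.62 to 8.70 CPM at day 4. The adipocyte markers, mostly Pparg and Plin4, were 25.6 to 43.9 CPM at day 6, against 37.6 to 41.1 CPM at day 4. The Schwann cell and neuron markers were 59.9 to 236 CPM at day 6, against 52.3 to 184 CPM at day 4. That last sum was mostly Stmn2 (means of 114 CPM at day 6 and 94.4 CPM at day 4) and Tubb3 (27.0 and 33.7 CPM). All other members of that list averaged under 1 CPM on both days.

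The promoters of 4 genes whose day 6 and day 4 libraries did not overlap are shown before the values as examples from either side, chosen after their values were seen: Mybpc1 (slow myosin-binding protein C) and Cavin4 (a muscle caveolar coat protein) lay higher at day 6, and Thbs2 (thrombospondin-2, a matricellular protein) and Edem1 (a lectin that directs misfolded glycoproteins out of the endoplasmic reticulum) lay lower. Each sequence is the 250 bases before the RefSeq transcription start in GRCm38.p6, read 5′ to 3′ on the gene's strand, at chr10:88605153-88605402 (minus strand) for Mybpc1, chr4:48663264-48663513 (plus) for Cavin4, chr17:14694263-14694512 (minus) for Thbs2 and chr6:108828391-108828640 (plus) for Edem1. Capitals mark matches, on either strand, to the E-box CANNTG, the TATA motif TATAAA and the CCAAT motif.
Mybpc1: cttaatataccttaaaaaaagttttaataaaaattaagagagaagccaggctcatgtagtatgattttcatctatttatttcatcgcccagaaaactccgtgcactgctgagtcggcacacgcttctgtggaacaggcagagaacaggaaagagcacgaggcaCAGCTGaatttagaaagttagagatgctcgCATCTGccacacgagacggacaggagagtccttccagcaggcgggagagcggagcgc
Cavin4: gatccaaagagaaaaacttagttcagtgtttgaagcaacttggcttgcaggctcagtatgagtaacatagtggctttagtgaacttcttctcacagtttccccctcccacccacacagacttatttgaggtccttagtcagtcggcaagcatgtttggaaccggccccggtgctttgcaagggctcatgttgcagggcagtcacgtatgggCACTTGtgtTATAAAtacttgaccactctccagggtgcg
Thbs2: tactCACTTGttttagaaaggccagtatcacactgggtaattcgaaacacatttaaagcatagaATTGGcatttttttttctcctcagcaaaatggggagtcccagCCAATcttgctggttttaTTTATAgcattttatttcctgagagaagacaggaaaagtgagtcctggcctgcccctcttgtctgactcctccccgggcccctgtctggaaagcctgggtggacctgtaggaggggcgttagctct
Edem1: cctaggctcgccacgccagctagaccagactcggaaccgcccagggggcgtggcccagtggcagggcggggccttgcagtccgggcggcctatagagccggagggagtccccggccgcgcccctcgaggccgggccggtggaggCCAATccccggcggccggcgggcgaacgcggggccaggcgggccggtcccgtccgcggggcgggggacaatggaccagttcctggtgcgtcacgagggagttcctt
An E-box of the form CAGCTG, which is also a match to CANNTG, began 87 bases before the Mybpc1 start and a second CANNTG match 57 bases before it; among all 32851 RefSeq promoter windows of this length 13% held CAGCTG and 66.2% CANNTG. The Cavin4 window had a CANNTG match 39 bases and a TATAAA match 30 bases before the start, and TATAAA was found in 12.4% of windows. The Thbs2 window had CCAAT matches 186 and 144 bases, a TATAAA match 126 bases and a CANNTG match 246 bases before the start, and the Edem1 window had 1 CCAAT match 106 bases before it; CCAAT was found in 33.8% of windows. A match is a description of the letters only.

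Among the myogenic transcription factors, the early factors stood level and Mef2c had the largest estimate. Mef2c, a MADS-box factor that acts with MyoD family proteins on contractile genes, had 672, 686, 500 and 526 CPM at WT day 6, against 392, 205, 245 and 383 CPM at WT day 4. Every day 6 library was above every day 4 library; the log2 fold change was 0.95 (95% interval 0.02 to 1.88), with an adjusted p of 1. Its level had been 15.2 ± 7.19, 25.3 ± 15.9 and 44.3 ± 30.7 CPM at WT days 0, 1 and 2 (SD, n = 4 each), and the day 4 against day 2 step was called at a log2 fold change of 2.84 (edgeR adjusted p = 0.00037). Myog, the factor of terminal differentiation, had 961, 962, 1674 and 1073 CPM at WT day 6, against 1045, 1438, 1287 and 887 CPM at WT day 4, a log2 fold change of -0.02 (95% interval -1.12 to 1.09). Myod1 had an estimate of -0.18 (-0.62 to 0.26), Myf5 -0.21 (-0.98 to 0.57) and Tcf3, an E-protein partner of MyoD, -0.56 (-0.96 to -0.16). Myf6, a late member of the MyoD family, was at 0.451 to 1.22 CPM at WT day 6, against 0 to 1.68 CPM at WT day 4. Over the 26 factors tested the median was -0.06, with 10 estimates above 0 and 15 below.

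No gene of the myoblast fusion list passed the test. Mymk (Myomaker) had 1854, 1490, 1768 and 1722 CPM at WT day 6, against 1518, 2082, 1757 and 1200 CPM at WT day 4. The groups overlapped, and the log2 fold change was 0.04 (95% interval -0.90 to 0.99). Mymx (Myomixer) had an estimate of -0.55 (-1.55 to 0.44), and Cdh15 (M-cadherin) -0.39 (-0.87 to 0.09). Over 21 fusion genes the median was -0.12 (-0.04 without WT day 4 replicate 1, -0.19 without WT day 6 replicate 1), with 8 above 0 and 13 below.

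Contractile genes had mostly positive estimates, none of which passed the test in the fit of all groups. Of 25 mature sarcomere isoforms tested, 23 were above 0 with a median log2 fold change of 0.46, where 47.1% of all genes were above 0, and 2 had day 6 libraries all above the day 4 libraries (1.24% of all genes). Of 16 embryonic, neonatal, slow and cardiac isoforms 15 were above 0, with a median of 0.47 and 1 gene with non-overlapping libraries. The list medians without WT day 6 replicate 5 were 0.35 and 0.27. The same lists had medians of 1.89 and 2.15 for day 4 over day 2 (which shares the day 4 libraries), with 14 and 11 members called higher at day 4, where 4.33% of all genes were. In FlncKO cells, which share no library with WT, the medians for day 6 over day 4 were 0.42 and 0.26.

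Myl2, the slow and cardiac regulatory light chain, had 170, 56.5, 92.2 and 357 CPM at WT day 6, against 63.8, 34.2, 14.0 and 66.4 CPM at WT day 4. Replicate 3 of day 6 lay within the day 4 range, and the log2 fold change was 1.93 (95% interval 0.50 to 3.36), or 1.22 without WT day 6 replicate 5. Mybpc1, whose promoter is printed above, had 50.3, 78.4, 30.2 and 32.7 CPM at WT day 6, against 27.9, 18.3, 12.8 and 26.4 CPM at WT day 4. These groups did not overlap, with a log2 fold change of 1.15 (0.02 to 2.29). Its fast paralog Mybpc2 had an estimate of 1.30 (-0.47 to 3.06) that was 0.37 without WT day 6 replicate 5.

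The myosin heavy chains kept their order. Per kilobase of exon, Myh3 (embryonic) was at 870 ± 156 CPM per kb at WT day 6, against 849 ± 123 at WT day 4, a log2 fold change of 0.02 (95% interval -1.59 to 1.64). Myh1 (fast IIx) was next, at 86.2 ± 37.8 CPM per kb at day 6, against 44.8 ± 17.1 at day 4. Myh7 (slow) was at 30.3 ± 8.62 CPM per kb at day 6, against 18.0 ± 8.38 at day 4, and Myh8 (neonatal) at 26.8 ± 10.8 at day 6, against 14.4 ± 5.78 at day 4 (SD, n = 4 throughout); Myh7 and Myh8 did not differ beyond their spread. Myh4 (fast IIb), at 7.96 ± 5.39 CPM per kb at day 6, and Myh2 (fast IIa), at 2.14 ± 0.349, were lowest of these 6. The estimates for Myh1, Myh2, Myh4, Myh7 and Myh8 lay between 0.74 and 0.95 with all 95% intervals spanning 0. These genes are close copies of each other and how shared reads were counted is not given in the sources used here, so their separate levels are uncertain. Acta1 (skeletal actin) had an estimate of 0.24 (-0.87 to 1.35), or 0.07 without WT day 6 replicate 5. Actc1 (cardiac actin) had -0.27 (-1.51 to 0.97), or -0.04 without WT day 4 replicate 4.

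At the Z-disc, 22 of 29 tested genes were above 0 (median 0.27, or 0.15 without WT day 6 replicate 5), and 4 had day 6 libraries all above the day 4 libraries (1.24% of all genes): Tcap, Smpx, Myoz1 and Cavin4. Tcap (telethonin, which caps titin) had 29.1, 35.2, 34.4 and 58.1 CPM at WT day 6, against 19.4, 15.9, 11.4 and 18.7 CPM at WT day 4. The log2 fold change was 1.26 (95% interval -0.14 to 2.66). Smpx (a small muscle protein of the costamere) had 372, 357, 339 and 594 CPM at day 6, against 193, 168, 205 and 301 CPM at day 4, an estimate of 0.94 (-0.38 to 2.26). Cavin4 differed by less but with little spread, at 698, 719, 732 and 827 CPM at day 6, against 575, 593, 551 and 677 CPM at day 4, an estimate of 0.30 (-0.12 to 0.73).

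Flna, a widely expressed filamin, had a lower estimate where Flnc was level. It had 260, 389, 647 and 326 CPM at WT day 6, against 545, 1005, 932 and 411 CPM at WT day 4, a log2 fold change of -0.86 (95% interval -1.59 to -0.13). The groups overlapped, and the adjusted p was 1. Per kilobase of exon, Flnc was at 170 ± 27.5 CPM per kb at day 6, against 172 ± 56.0 at day 4 and Flna at 43.1 ± 18.0 at day 6, against 76.9 ± 30.9 at day 4 (SD, n = 4 each).

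**Figure D2:**
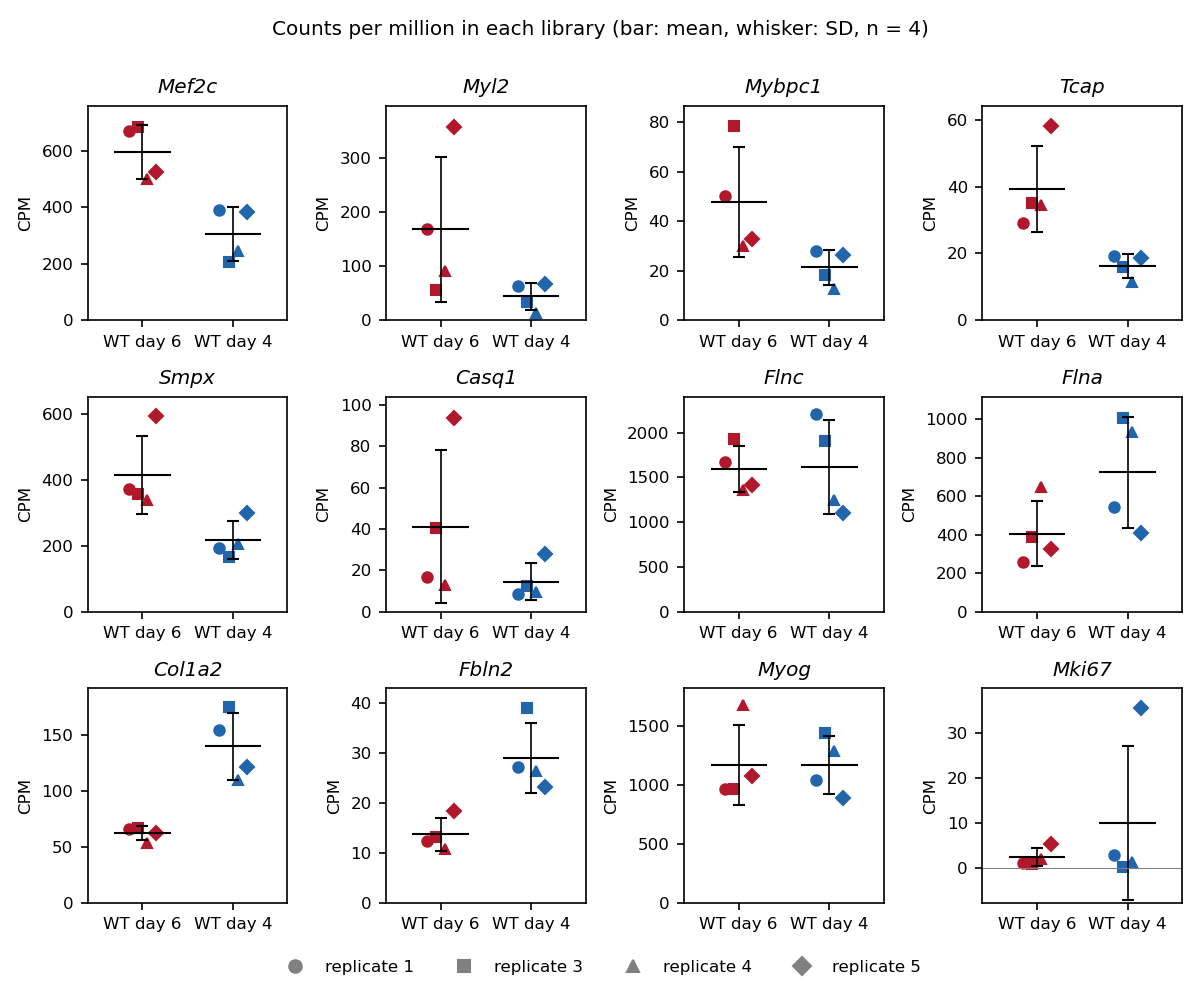
CPM of 12 genes in each WT library, day 6 (red, left) and day 4 (blue, right), on a linear axis; bars are means and whiskers SD of 4 libraries. Mef2c, Mybpc1, Tcap and Smpx lie wholly higher at day 6 and Col1a2 and Fbln2 wholly lower at day 6, Flnc and Myog overlap, and 1 library of day 4 carries most of the Mki67 level of that day.

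Calcium handling and metabolism followed the sarcomere in sign. Of 27 excitation-contraction coupling genes 21 were above 0 (median 0.18, or 0.07 without WT day 6 replicate 3). Casq1, the fast-fibre calcium store protein, had 16.9, 40.5, 13.0 and 93.4 CPM at WT day 6, against 8.31, 12.5, 9.53 and 27.9 CPM at WT day 4, an estimate of 1.51 (95% interval -0.14 to 3.15) that was 0.66 without WT day 6 replicate 5. Of 22 genes of creatine, adenylate and glycogen metabolism 19 were above 0 (median 0.33, or 0.18 without WT day 6 replicate 5), and 3 had day 6 libraries all above the day 4 libraries (1.24% of all genes), among them Pfkm and Pgam2. Pgam2, the muscle phosphoglycerate mutase, had 54.6, 81.8, 63.6 and 128 CPM at day 6, against 33.1, 47.1, 49.9 and 48.7 CPM at day 4, an estimate of 0.87 (-0.21 to 1.96), or 0.54 without WT day 6 replicate 5. Ckm, the muscle creatine kinase, had an estimate of 0.33 (-0.99 to 1.65), or 0.08 without WT day 6 replicate 5.

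Of 40 nuclear-encoded respiratory chain genes tested 38 were above 0, with estimates from -0.07 to 1.01 and a median of 0.20 (0.11 without WT day 6 replicate 5, 0.34 without WT day 4 replicate 3). None had non-overlapping libraries, and 0 had an unadjusted p under 0.05. The median member stood -0.11 to 0.39 log2 units from its 8-library mean in the day 6 libraries, and -0.42 to 0.22 in the day 4 libraries, so the days overlapped. Uqcrc2, a core subunit of complex III, had 265, 232, 302 and 295 CPM at day 6, against 208, 260, 237 and 233 CPM at day 4, an estimate of 0.21 (95% interval -0.13 to 0.55). The 10 tested genes of the mitochondrial genome had a median of 0.00, and the share of all counts from that genome was 3.17 ± 0.298% at WT day 6 and 3.01 ± 0.929% at WT day 4 (SD, n = 4 each). Ppargc1a, the coactivator of mitochondrial biogenesis, had an estimate of 0.24 (-0.87 to 1.35), and 26 fatty acid genes had a median of 0.06. The acetylcholine receptor and endplate list (15 genes, median 0.01) changed sign between alternatives.

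The list of muscle ubiquitin ligases, autophagy genes and small heat shock proteins had 20 of 33 estimates above 0 (median 0.13, or 0.03 without WT day 6 replicate 1) and 4 genes with all day 6 libraries above all day 4 libraries (1.24% of all genes), among them Hspb8, Fbxo40 and Asb15. Fbxo40, a muscle-restricted ubiquitin ligase component, had 52.4, 72.4, 61.7 and 82.3 CPM at day 6, against 43.9, 42.8, 45.8 and 39.2 CPM at day 4, an estimate of 0.64 (95% interval -0.23 to 1.51). The atrophy ligases were level, with estimates of -0.05 (-0.81 to 0.71) for Fbxo32 and 0.13 (-0.75 to 1.01) for Trim63. Of 22 p53 targets 17 were above 0 (median 0.12, but 0.31 without WT day 6 replicate 5 and 0.06 without WT day 6 replicate 1). Eda2r, a receptor of the TNF family, had 917, 686, 677 and 681 CPM at day 6, against 602, 419, 450 and 540 CPM at day 4. Its groups did not overlap, with an estimate of 0.55 (-0.06 to 1.16). In the dystrophin complex, Sgcd (delta-sarcoglycan) had an estimate of 0.84 (0.25 to 1.42) and Dmd 1.34 (-0.37 to 3.05).

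Extracellular matrix genes had mostly negative estimates, none of which passed the test in the fit of all groups. Of 20 collagens 18 were below 0, with a median log2 fold change of -0.46 that stayed between -0.53 and -0.42 when any 1 WT library was left out, where 52.3% of all genes were below 0. Of the 20, 6 averaged under 1 CPM. The median member stood -0.46 to -0.08 log2 units from its 8-library mean in the day 6 libraries. In the day 4 libraries it stood at -0.17 to 0.73, so the days overlapped. Col1a2, a chain of type I collagen, had 66.5, 67.4, 53.4 and 62.5 CPM at WT day 6, against 154, 175, 110 and 122 CPM at WT day 4. Every day 6 library was below every day 4 library, by a log2 fold change of -1.18 (95% interval -1.87 to -0.50) with an adjusted p of 1. Col1a2 had been at 672 ± 275, 772 ± 244 and 437 ± 85.5 CPM at WT days 0, 1 and 2 (SD, n = 4 each), and day 4 against day 2 was called at -1.60 (edgeR adjusted p = 0.0026). The collagen list had a median of -1.49 for day 4 over day 2, with 8 of 20 called lower at day 4 (6.45% of all genes), and of -0.51 for day 6 over day 4 in FlncKO cells.

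Of 32 basement membrane and matricellular genes 26 were below 0 (median -0.22, or -0.36 without WT day 6 replicate 3), and 4 had all day 6 libraries below all day 4 libraries (1.28% of all genes): Fbln2, Tnc, Nid1 and Thbs2. Fbln2 (fibulin-2) had 12.4, 13.2, 10.8 and 18.5 CPM at day 6, against 27.2, 39.1, 26.5 and 23.1 CPM at day 4, an estimate of -1.09 (95% interval -1.67 to -0.50). Tnc (tenascin-C) had 8.95, 22.5, 26.7 and 9.69 CPM at day 6, against 29.1, 64.0, 28.8 and 36.8 CPM at day 4, an estimate of -1.24 (-2.24 to -0.24). Thbs2, with its promoter above, had 22.1, 22.4, 20.5 and 18.0 CPM at day 6, against 28.3, 29.5, 32.9 and 31.8 CPM at day 4, an estimate of -0.57 (-1.16 to 0.01). Of 30 matrix proteases and crosslinking enzymes 27 were below 0 (median -0.37), with Plau (urokinase) at -0.72 (-1.34 to -0.10) and the collagen chaperone Serpinh1 at -0.51 (-0.98 to -0.03).

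Summed markers of some other cells were lower at day 6 beside the matrix genes. The summed reserve myoblast markers were 209 to 287 CPM in WT day 6 libraries, against 266 to 315 CPM in WT day 4 libraries, with 8 of 9 tested members below 0 (median -0.21) and Chrdl2 at 0 in all libraries. The summed bone and cartilage markers were 40.3 to 49.7 CPM at day 6, against 56.2 to 70.0 CPM at day 4, mostly Sox9 and Runx2, with Ibsp and Acan at 0. Fibroblast markers summed to 144 to 771 CPM at day 6, against 229 to 549 CPM at day 4, mostly Ly6a (means of 404 and 383 CPM). Their part in the matrix result was not tested. Vcam1, a reserve cell marker, had 14.4, 12.8, 16.1 and 11.3 CPM at day 6, against 24.9, 19.8, 24.5 and 20.6 CPM at day 4 (estimate -0.73, 95% interval -1.39 to -0.08), while Pax7 was at 0 to 1.99 CPM at day 6, against 0.223 to 1.52 CPM at day 4.

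Cytoskeletal genes under serum response factor and stress genes of the endoplasmic reticulum were also mostly below 0. Actb (beta-actin) had 655, 649, 752 and 615 CPM at WT day 6, against 782, 1322, 1056 and 809 CPM at WT day 4, with no overlap and an estimate of -0.59 (95% interval -1.03 to -0.15). Of 28 genes of that list 21 were below 0 (median -0.27, -0.45 without WT day 6 replicate 4, -0.17 without WT day 4 replicate 4). The estimates of the list ran from -0.79 to 2.34. Without overlap there were 1 higher gene (1.24% of all genes) and 1 lower gene (1.28% of all genes). All 39 genes tested of the unfolded protein and integrated stress responses were below 0, with a median of -0.28 that stayed between -0.36 and -0.26 when any 1 WT library was left out; 0 of the 39 had an unadjusted p under 0.05 and 4 had all day 6 libraries below all day 4 libraries (1.28% of all genes). The median member stood 0.08 to 0.30 log2 units below its 8-library mean in the day 6 libraries, and 0.04 to 0.31 above it in the day 4 libraries. Edem1 had 20.1, 21.4, 21.9 and 20.6 CPM at day 6, against 29.3, 28.0, 36.1 and 39.8 CPM at day 4, an estimate of -0.67 (-1.40 to 0.05). In FlncKO cells the median of this list for day 6 over day 4 was -0.21.

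**Figure D3:**
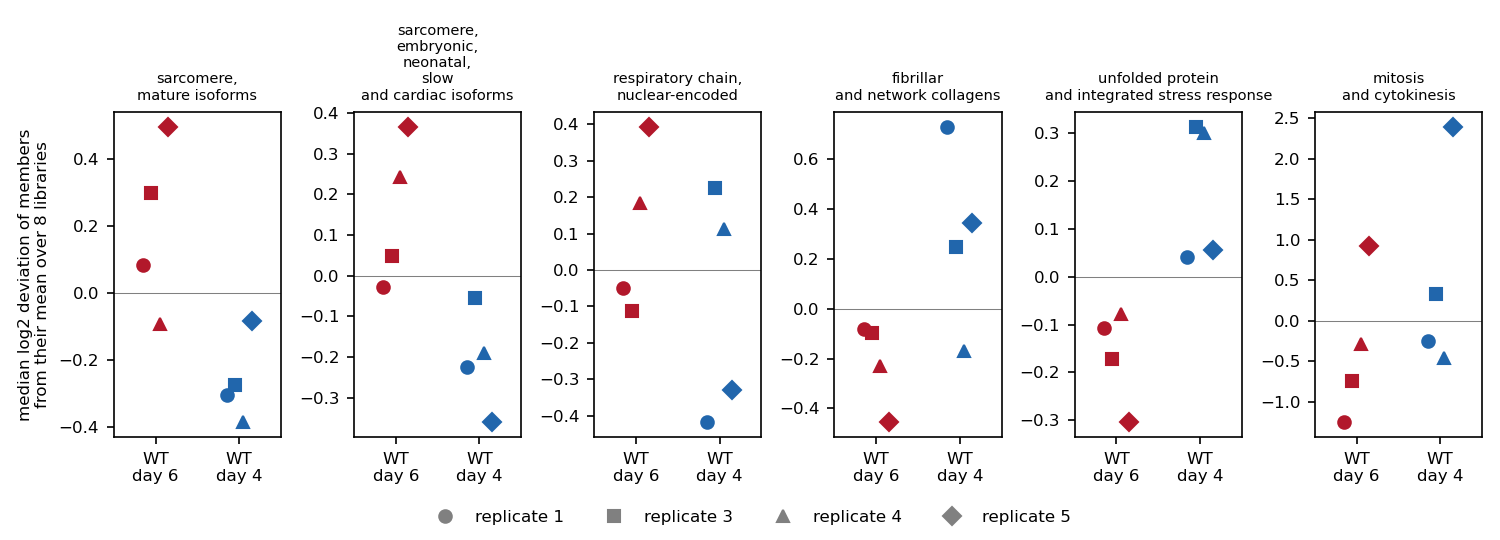
Level of 6 gene lists in each WT library, as the median over tested members of the log2 CPM difference from the member's mean over the 8 libraries; day 6 red and left, day 4 blue and right, shapes by replicate number, with a separate vertical axis for each list. The stress response list and the embryonic, slow and cardiac sarcomere list separate the days without overlap, the mature sarcomere and collagen lists nearly do, and in the mitosis list replicate 5 is the highest library of each day.

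Other metabolic and signalling lists were mostly below 0, and most of their members overlapped between the days. Of 35 sterol and fatty acid synthesis genes 33 were below 0 (median -0.35, or -0.54 without WT day 6 replicate 5), with Fasn at -0.65 (95% interval -1.32 to 0.03) and Elovl6 at -0.86 (-1.69 to -0.03). Of 24 lysosomal genes 23 were below 0 (median -0.22, or -0.34 without WT day 4 replicate 5). Of 30 glycolysis and hypoxia genes 24 were below 0 (median -0.24), among them Eno1, the non-muscle enolase, at -0.61 (-1.22 to 0.00). Hey1, a target of Notch signalling, had 1.74, 3.50, 5.07 and 2.93 CPM at day 6, against 6.61, 6.78, 9.21 and 10.6 CPM at day 4, with no overlap and an estimate of -1.32 (-2.17 to -0.46). Igfbp2, an IGF-binding protein, had an estimate of -1.30 (-2.44 to -0.15), and the antigen-presentation genes H2-K1 and H2-D1 had -0.75 (-1.23 to -0.27) and -0.48 (-0.95 to -0.02). The median was -0.27 for 28 Notch, Wnt and Hedgehog genes (-0.12 without WT day 4 replicate 1). It was -0.32 for 23 genes of the insulin-like growth factor axis (-0.09 without WT day 6 replicate 5). The median was -0.11 for 30 interferon and antigen-presentation genes (-0.25 without WT day 6 replicate 5, -0.04 without WT day 6 replicate 3). It was -0.12 for 29 integrin and focal adhesion genes (-0.21 without WT day 6 replicate 1). Further lists were those of ion channels (18 genes, median 0.13), membrane repair and the dystrophin complex (28 genes, 0.02), myokines (30 genes, 0.02), splicing regulators (15 genes, 0.01), TGF-beta family signals (32 genes, -0.02) and cytosolic ribosomal proteins (32 genes, -0.03). Each of these 6 changed sign when 1 library or another was left out.

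The cell cycle lists turned on 1 library. All 36 genes of mitosis and cytokinesis were below 0 (52.3% of all genes), with a median of -1.18. Of these, 7 were lower at an unadjusted p under 0.05 (2.25% of all genes). Mki67, a marker of cycling cells, had 0.994, 0.914, 2.03 and 5.18 CPM at WT day 6, against 2.81, 0.174, 1.35 and 35.5 CPM at WT day 4. Only replicate 5 of day 4 lay above all day 6 libraries; the estimate was -2.16 (95% interval -4.10 to -0.22), and 0.58 without WT day 4 replicate 5. Without that library the median of the list was 0.10, and without WT day 6 replicate 5 it was -1.84. Over 38 DNA replication genes the median was -0.19, and 0.03 without WT day 4 replicate 5. Incenp (inner centromere protein) had 3.23, 5.03, 5.58 and 6.31 CPM at day 6, against 8.54, 9.39, 6.89 and 11.7 CPM at day 4. It was the 1 mitosis gene of 36 whose libraries did not overlap (1.28% of all genes were lower without overlap). Of the 18 tested CDK inhibitors, pocket proteins and D cyclins 9 were above 0 and 9 below, with a median of -0.03.

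**Figure D4:**
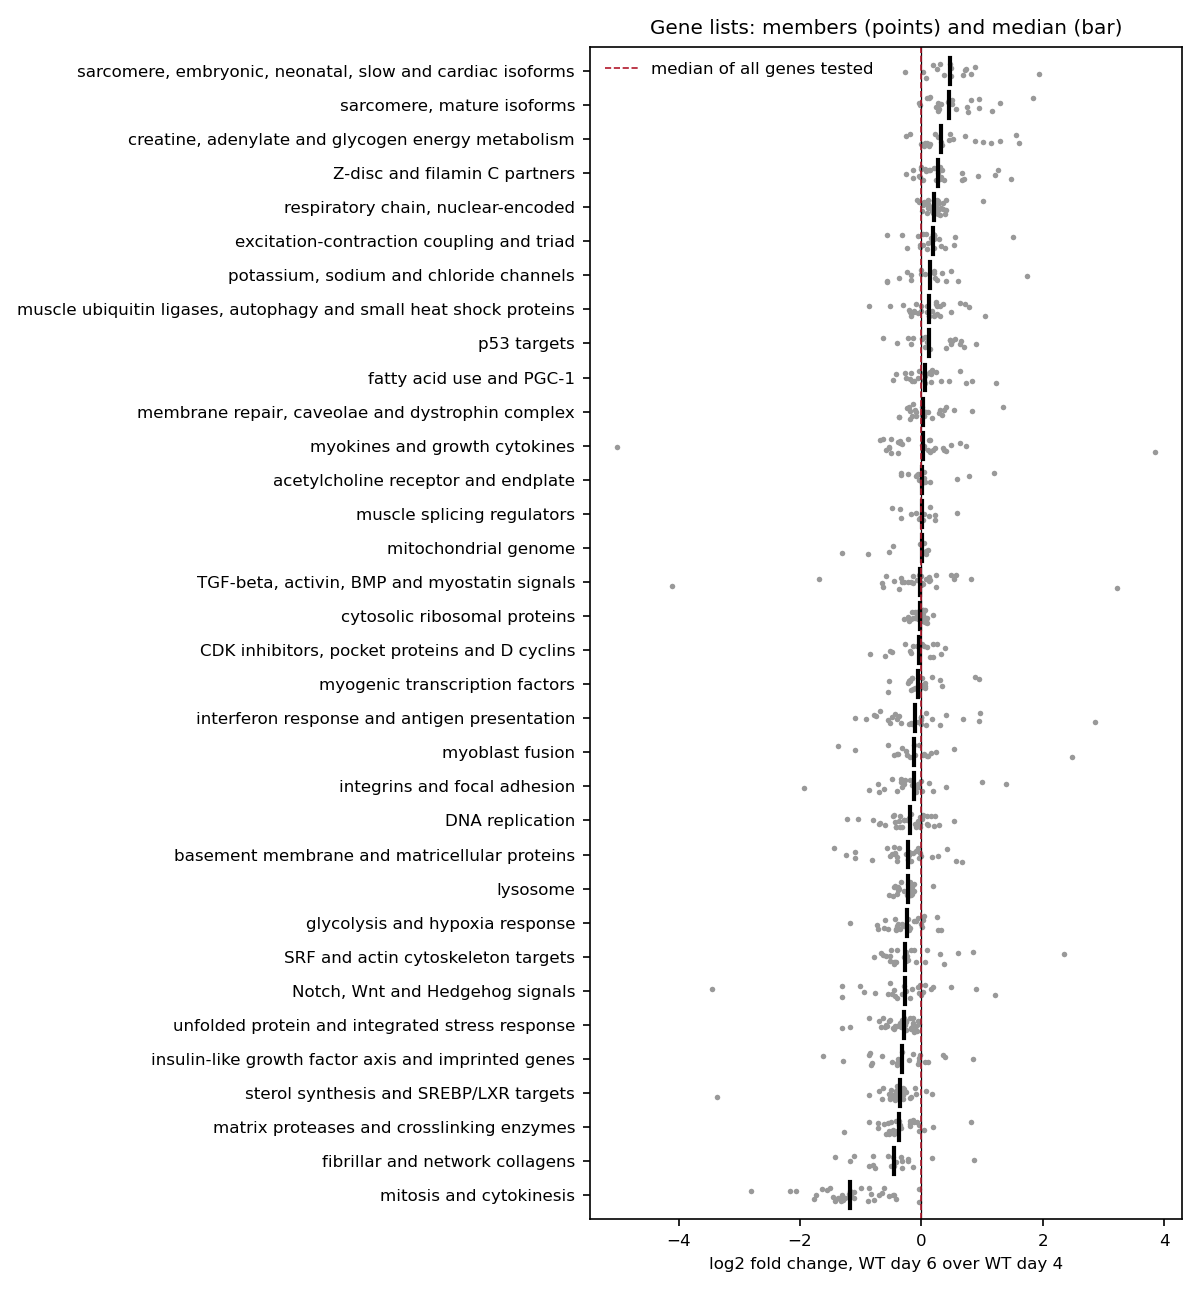
Log2 fold change, WT day 6 over WT day 4, of each tested member (grey points) of 34 gene lists, with the list median as a black bar; the dashed line is the median of all genes tested (-0.02). Sarcomere lists stand at the top with medians of 0.47 and 0.46 and mitosis at the bottom with -1.18, a value that was 0.10 without 1 library of day 4.

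Over the whole course the mean levels of the mature sarcomere, collagen and mitosis lists at day 6 lay farther from day 0 than at day 4. Relative to WT day 0, the mature sarcomere list stood at 1.49 ± 1.34, 3.73 ± 0.61, 5.80 ± 0.27 and 6.26 ± 0.34 log2 units at days 1, 2, 4 and 6 (mean and SD of the median member in 4 libraries). The collagen list stood at 0.11 ± 0.51, -0.90 ± 0.37, -2.27 ± 0.33 and -2.92 ± 0.23, and the mitosis list at -0.82 ± 0.67, -2.90 ± 0.95, -5.37 ± 1.35 and -6.20 ± 1.09 log2 units. The mitosis level ran from -6.39 to -3.42 in the day 4 libraries, with replicate 5 highest. Without that library the median log2 fold change of the mitosis list, day 6 over day 4, was 0.10. The stress response list had its highest mean and widest spread at day 2 (0.65 ± 1.12) and stood at 0.31 ± 0.18 at day 4 and -0.08 ± 0.13 at day 6.

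**Figure D5:**
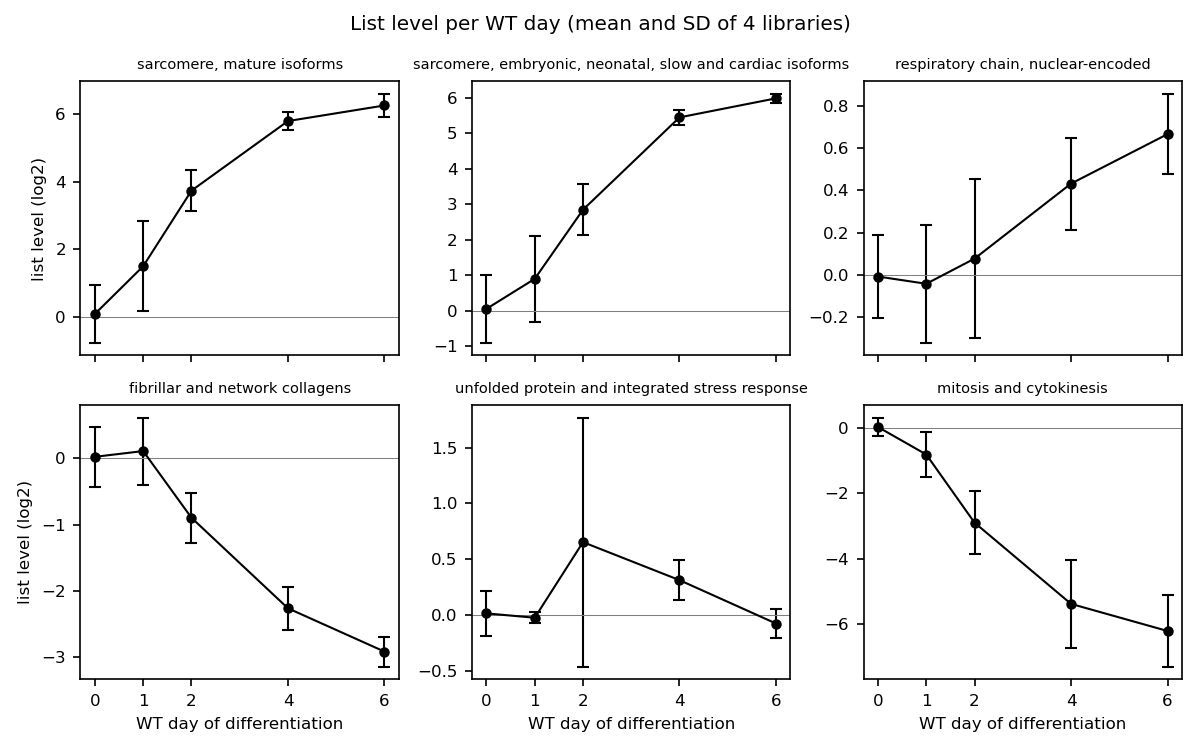
Level of 6 gene lists in WT cells at days 0, 1, 2, 4 and 6 of differentiation, in log2 units from the WT day 0 mean; points are means and whiskers SD of 4 libraries, with a separate vertical axis for each list. The sarcomere lists stand at 6.26 (mature isoforms) and 5.98 (embryonic, slow and cardiac isoforms) at day 6, little above day 4, and the collagen list at -2.92 and the mitosis list at -6.20. For mitosis the median log2 fold change, day 6 over day 4, was 0.10 without replicate 5 of day 4.

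Set beside FlncKO cells, the WT step was not distinguishable gene by gene. FlncKO day 6 against FlncKO day 4 gave 0 calls (0%), with 325 genes at an unadjusted p under 0.05 (2.36%; 0.806% higher and 1.55% lower), and the difference between the FlncKO and WT steps gave 0 calls (0%), with 158 at an unadjusted p under 0.05 (1.15%; 0.486% higher and 0.66% lower in FlncKO). Across the 9773 genes of at least 5 CPM the WT and FlncKO log2 fold changes, which share no library but are numbered alike, had Pearson's r of 0.48 and Spearman's rho of 0.57; genes are not independent replicates. Individual differences were poorly bounded: the FlncKO step minus the WT step was -1.70 for Myl2 (95% interval -3.79 to 0.40), 0.43 for Col1a2 (-0.52 to 1.38), 0.11 for Fbln2 (-0.71 to 0.93) and 0.03 for Smpx (-1.82 to 1.88). Mef2c averaged 596 ± 96.6 CPM at WT day 6 and 306 ± 95.4 CPM at WT day 4, and 13.7 ± 8.18 CPM at FlncKO day 6 and 8.19 ± 5.11 CPM at FlncKO day 4 (SD, n = 4 each), with log2 fold changes of 0.95 in WT and 0.74 in FlncKO cells.

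Some genes outside the lists were chosen after their values were seen. Itpk1 (an inositol phosphate kinase), with the smallest p of all genes, had 5.97, 4.34, 6.08 and 4.17 CPM at WT day 6, against 9.19, 10.2, 11.2 and 7.37 CPM at WT day 4, a log2 fold change of -0.90 (95% interval -1.36 to -0.44). Its FlncKO step minus its WT step was 0.67 (0.03 to 1.31), with an adjusted p of 1. Cd24a, a cell-surface glycoprotein, had 18.8, 16.6, 7.86 and 11.7 CPM at day 6, against 5.27, 4.52, 4.35 and 5.25 CPM at day 4, an estimate of 1.49 (0.37 to 2.60). Fxyd6, a regulator of the sodium pump, had 84.1, 39.5, 74.0 and 34.7 CPM at day 6, against 33.5, 19.0, 14.5 and 11.9 CPM at day 4, an estimate of 1.54 (0.33 to 2.74). Tceal7 had 193, 125, 105 and 176 CPM at day 6, against 74.0, 66.6, 47.7 and 83.6 CPM at day 4, an estimate of 1.13 (-0.15 to 2.41). Adgrg1, an adhesion receptor, had 4.47, 6.55, 4.63 and 5.63 CPM at day 6, against 11.2, 14.6, 10.2 and 13.4 CPM at day 4, an estimate of -1.22 (-2.01 to -0.44). In each of these the groups did not overlap and the adjusted p in the fit of all groups was 1.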

How the data were processed

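Libraries were made with a stranded mRNA kit and read at 51 bases, per the labels' protocols. The deposited table holds raw counts per gene, which the authors made with FastQC 0.11.9, STAR 2.7.9 and featureCounts 2.0.3, per the submitters' processing notes; builds GRCm38 and GRCh38 are named without a role, and strand setting and annotation are not given in the sources used here. All 29980 identifiers matched GENCODE mouse release 21. In the 8 libraries 63.8% to 73.4% of non-zero counts were even, so both mates of a pair may have been counted and depth in fragments is uncertain. Of the table's columns, 1 matched no sample and was left out. The model was fitted in edgeR 4.0.16, under R 4.3.3 with limma 3.58.1, to all 39 libraries: 1 mean for each of 10 groups, TMM, filterByExpr by group (10001 genes had no read), robust quasi-likelihood F-tests with 29 residual degrees of freedom, and a common biological coefficient of variation of 0.326. A call is a Benjamini-Hochberg adjusted p under 0.05 over all genes tested. Each 95% interval comes from the same F statistic, so its width reflects the spread within all 10 groups and not only within the 8 compared libraries. For the mature sarcomere list, the SD of the list level was 1.34 at WT day 1, against 0.27 at day 4 and 0.34 at day 6. CPM are counts over library totals. No set test was run.

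The members, the 34 gene lists (936 genes) and the 8 marker lists were chosen with earlier results of these data known. The rule for naming took the largest changes among called genes (none was called), at most 4 genes per described list, by smallest p, and 25 filamin, myogenic and cell cycle genes listed by name; 6 others are said to be chosen after their values were seen. Mstn is one of the 25 and did not pass the filter, at 0 to 0.762 CPM at WT day 6 and 0 to 0.414 CPM at WT day 4. Alternatives were normalization by DESeq2 size factors, keeping all genes with a count, DESeq2 1.42.0 as the tool, blocking on replicate number, the compared groups alone, glmTreat against 1.5-fold, halved counts, counts thinned to the smallest library, and each library left out; 3 more were chosen after seeing the data. The main edgeR fit, for the WT step only, was tested on simulated counts in which every gene had the same biological coefficient of variation. DESeq2, the block, glmTreat and the difference between the FlncKO and WT steps were not simulated. Results of some genes are left out of the text.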

Additional observations from a re-analysis of the deposited data

Results flagged for a closer look

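The samples of 216 groups of 4 libraries (each named gene and each list, by day) were looked at for a library whose gap to its nearest neighbour took up more of the group's range than Dixon's 95% critical value for 4 samples, and 11 groups (5.09%) did. Chance alone gives about 1 in 20. In WT day 6 libraries, replicate 4 stood apart for Col1a2 (0.861 of the range), Serpinh1 (0.878), Actb (0.875), Eno1 (0.902) and the blood cell marker list (0.938), replicate 5 for Smpx (0.834) and the fatty acid list (0.867), replicate 1 for Edem1 (0.915), and replicate 3 for the acetylcholine receptor and endplate list (0.839). In WT day 4 libraries, replicate 3 stood apart for Myf5 (0.846) and replicate 1 for Pgam2 (0.973).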

How the results depend on the processing

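The count of called genes for WT day 6 against day 4 was 0 under DESeq2 size factors, no filter, DESeq2 on all groups, the compared groups only, glmTreat, halved counts, thinned counts, a replicate block and without each of the 8 libraries (0 to 0). At an unadjusted p under 0.05 the count was 129 with glmTreat, 823 with the replicate block, 254 without WT day 4 replicate 3 and WT day 6 replicate 5, and 273 to 576 without 1 library. Alternatives chosen after seeing the data gave calls: DESeq2 on the compared groups gave 6 (4 higher, 2 lower), and the replicate block without both replicate 3 libraries gave 146 (83 higher, 63 lower; 1802 at an unadjusted p under 0.05). The cause was not tested. Same-numbered WT libraries correlated at 0.37, 0.38 and 0.26 for numbers 1, 4 and 5 but at -0.05 for number 3. Those of different numbers correlated at -0.32 to 0.21. The FlncKO libraries of days 6 and 4 had the same pattern. They correlated at 0.37, 0.21 and 0.22 for numbers 1, 4 and 5, at 0.02 for number 3, and at -0.35 to 0.20 for different numbers. Number 3 did not deviate together in either line. The labels name no block, so the numbers were not taken as pairs in the main fit. The main fit therefore leaves out an effect that numbers 1, 4 and 5 may share. For the difference between the FlncKO and WT steps the calls were 0 to 1 without 1 library (1 lower, Pkn3, without WT day 6 replicate 1, named after its value was seen), and the unadjusted counts were 375 with no filter, 105 with halved counts and 270 with that block.

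Estimates near 0 changed sign, as did the larger one of Mki67 without WT day 4 replicate 5. With the replicate block Flnc was 0.041, Myog 0.0033, Pax7 -0.073 and Fbxo32 0.032; with the block without the replicate 3 libraries Flnc was 0.069, Myog 0.22, Myf6 -0.43, Myh3 -0.043, Pax7 -0.42 and Ppargc1a -0.20; without WT day 4 replicate 3 and WT day 6 replicate 5 Flnc was 0.12, Myog 0.15 and Myf6 -0.14. Myog was 0.0087 in the compared groups only and 0.012 in DESeq2 on them, and Myf6 was -0.12 with thinned counts. Without 1 library Flnc ran from -0.18 to 0.15, Myog from -0.22 to 0.13, Myf6 from -0.32 to 0.69, Mymk from -0.082 to 0.21, Myh3 from -0.071 to 0.14, Pax7 from -0.82 to 0.75, Mki67 from -2.90 to 0.58, Ppargc1a from -0.070 to 0.60 and Fbxo32 from -0.26 to 0.16. The other named genes kept their direction in all these settings. The whole 95% interval lay within 1 log2 unit of 0 for 62.6% of all genes tested, against 84.6% of those of at least 5 CPM.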

Other observations

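The mitochondrial messages mt-Co2, mt-Co3 and mt-Atp6 were at 0 to 0.760, 0 to 0.507 and 0 to 0.444 CPM in WT day 6 libraries, against 0.261 to 0.761, 0.527 to 0.870 and 0.261 to 0.468 CPM in WT day 4 libraries. In the same libraries mt-Nd1, from the same polycistronic RNA, was at 3407 to 4883 CPM at day 6, against 3022 to 6217 CPM at day 4. The cause was not tested.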
